A study of Mus musculus with 16 samples.

Results

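Mitochondrial DNA carries 37 genes in the mouse, and all 37 (symbols starting with mt-) were among the 55604 genes listed for each library. They are 13 protein-coding genes, 2 rRNA genes and 22 tRNA genes, and they were chosen by their place on the mitochondrial chromosome and not by their values. RNA was measured in peritoneal tumor-associated macrophages (TAMs) of wild-type female C57BL/6 mice, for which the methods give an age of 6 to 8 weeks, that had received cells of ID8, an ovarian cancer line of the mouse, in the peritoneal cavity 6 to 7 weeks earlier. Tim-4+ TAMs were isolated with magnetic beads against the Tim-4 label, and Tim-4- TAMs were isolated from the remaining cells with beads against the macrophage surface protein encoded by Adgre1, so the 2 subsets differ in their isolation step as well as in Tim-4. Both subsets carry the pair numbers 793, 784, 783 and 779, which gives 4 libraries of each (n = 4), and values below are listed in that order of pairs. Whether a library holds cells of 1 mouse or of several is not stated, so p-values speak for these libraries only. In the fit blocked on the pair number they rest on the spread left after differences between pairs are removed.

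The 13 proteins are subunits of the oxidative phosphorylation complexes. The Nd genes encode subunits of complex I (NADH dehydrogenase), mt-Cytb encodes cytochrome b of complex III, the Co genes encode the core subunits of complex IV (cytochrome c oxidase), and the Atp genes encode subunits of complex V (ATP synthase). Both strands are transcribed into long precursors that cover many genes, and most mRNAs and rRNAs are released when the tRNAs between them are cut out. The genes of a strand therefore share their transcripts and are not independent of each other. In the annotation used here (GENCODE M21 on GRCm38) the plus strand codes for 28 of the genes and the minus strand for 9, which are mt-Nd6 and 8 tRNAs.

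The sequences of 3 tRNAs are shown because these had the most counts of the 22 tRNA genes and because 1 of them, mt-Ts1, was the gene that went against the others. They are read from the GENCODE M21 transcripts, 5′ to 3′, with the anticodon in capitals.
mt-Tl1, a leucine tRNA on the plus strand (chrM:2676-2750): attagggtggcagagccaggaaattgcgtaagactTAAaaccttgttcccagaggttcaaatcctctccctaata
mt-Ts1, a serine tRNA on the minus strand (chrM:6870-6938): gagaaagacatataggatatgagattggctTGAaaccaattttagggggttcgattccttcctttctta
mt-Tc, the cysteine tRNA on the minus strand (chrM:5192-5257): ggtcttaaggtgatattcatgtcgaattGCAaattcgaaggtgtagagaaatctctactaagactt

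Libraries were made from total RNA after rRNA removal, with a stranded kit. Counts on genes totaled 53527928 to 57768202 per library in the Tim-4+ libraries and 55618306 to 69594245 in the Tim-4- libraries. A gene with 3 counts, taken as the floor, has 0.0431 to 0.0560 CPM (counts scaled to library size), and this floor covers counting error only. Summed over 8 macrophage markers the level was 44709 to 57156 CPM in the Tim-4+ and 21376 to 34152 CPM in the Tim-4- libraries. Of the 8, 6 were called higher in the Tim-4+ libraries, where 8.97% of all tested genes were. Timd4, the gene for the sorted antigen, was at 524 to 1743 CPM and 1.96 to 84.9 CPM. Markers of ID8 and mesothelial cells (8 genes, such as Krt8 and Msln) summed to 106 to 389.8 CPM in Tim-4+ and 412 to 1937 CPM in the Tim-4- libraries. All 8 were called lower in the Tim-4+ libraries, where 8.43% of all tested genes were. Summed levels of lymphocyte, dendritic cell and granulocyte markers were between 0.676 and 16.6 CPM in every library, and no marker of any list was at 0 in all libraries. From these lists 1 of 4 B cell genes and 1 of 4 dendritic cell genes were called lower in the Tim-4+ libraries, and none was called higher. Red cell genes reached 255 CPM in Tim-4+ and 65.5 CPM in the Tim-4- library of pair 783, and were at most 3.63 CPM elsewhere. Of 3 tested, 1 was called higher in the Tim-4+ libraries. The methods name a Globin kit for the libraries and this list is mainly globin genes, so these levels were not read as an amount of red cells. The part of other cells in the differences below was not tested, and in these bulk libraries fewer cells of a type and less RNA per cell cannot be told apart.

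Genes of mitochondrial DNA from all 3 classes of RNA were called higher in the Tim-4+ libraries. Of the 37 genes, 27 had enough counts to be tested (at least 10 in at least 4 of the 8 libraries), namely all 13 coding genes, both rRNA genes and 12 of the 22 tRNA genes. At an adjusted p under 0.05, 17 of the 27 were called higher and 1 was called lower, where 8.97% of all 16861 tested genes were called higher and 8.43% lower. The 17 were 11 coding genes, both rRNA genes and 4 tRNA genes. Calls came from edgeR's quasi-likelihood test, blocked on the pair number, with p-values adjusted by Benjamini-Hochberg over all tested genes. The median log2 fold change was 1.16 over the 27 genes and 1.17 over the 13 coding genes, beside a median of -0.0012 over all tested genes. In 20 of the 27 genes every Tim-4+ library was above every Tim-4- library, as in 6.84% of all tested genes, and in 1 gene every Tim-4+ library was below, as in 5.92%. These counts are on TMM-scaled values. By total counts 8 genes, 5 of them coding, lay above without overlap (2.45% of all tested genes) and the same 1 gene below (19% of all tested genes).

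**Figure D1:**
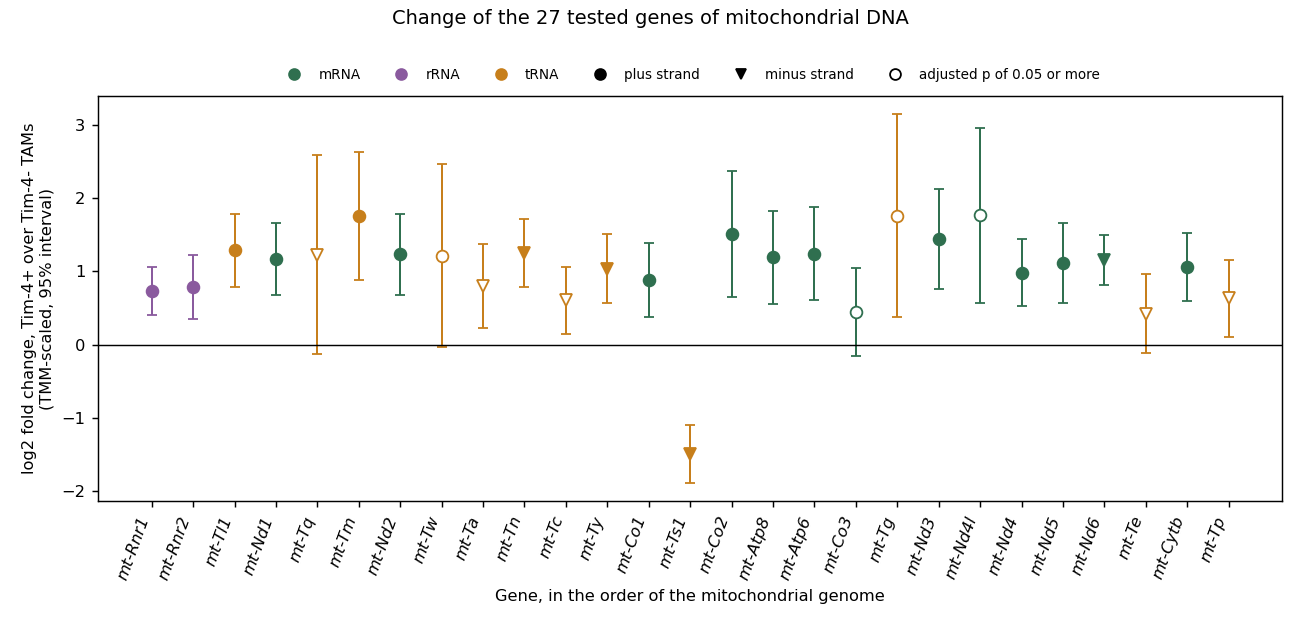
The log2 fold change of Tim-4+ over Tim-4- TAMs (vertical axis, TMM-scaled, with bars for the 95% interval) is plotted for the 27 tested genes in the order of the mitochondrial genome. Color gives the class of RNA, triangles mark the minus strand and open symbols mark an adjusted p of 0.05 or more. All genes lie above 0 but mt-Ts1, at -1.50.

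Most of these calls needed the pairing. Without the pair block 3 genes were called higher (mt-Nd6, mt-Tl1 and mt-Tn) and 0 lower, and the median of the coding genes was 1.23. Calls fell over all genes as well, to 0.872% higher and 0.504% lower. The same 3 genes were called higher when pair 793 or pair 779 was left out, where 4.43% and 2.75% of all tested genes were. Only mt-Nd6 was called higher when pair 784 was left out, where 0.483% of all tested genes were, and 19 genes were without pair 783, where 9.89% were. In the other direction 1 mitochondrial gene was called lower in each fit that left out a pair, where 2.89% of all tested genes were called lower without pair 793, 0.334% without pair 784, 11.9% without pair 783 and 2.03% without pair 779. Over the 4 fits that left out a pair the median log2 fold change of the coding genes was 0.98 to 1.37. mt-Nd6 was the gene that was called higher in every alternative tried.

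The size of the difference varied among pairs and with the scaling of the libraries. On TMM-scaled counts the median log2 ratio of the 13 coding genes was 1.29, 0.47, 0.90 and 1.71 in pairs 793, 784, 783 and 779. Scaled by the total count of each library, the medians were 1.05, 0.03, 0.65 and 1.22. Pair 784 thus showed the smallest difference in both, and in this pair 8 of the 13 coding genes were higher in the Tim-4+ libraries by total counts and all 13 by TMM. By total counts, 14 of the 27 genes were higher in all 4 pairs, compared with 24 by TMM. The share of all tested genes that were higher in all 4 pairs was not counted under either scaling. A total count scaling shifts every gene down, with a median log2 fold change of -0.36 over all tested genes, and it changed the split of calls over all genes from 1512 higher and 1421 lower to 789 higher and 4903 lower. Under it 14 genes of mitochondrial DNA were still called higher and 1 lower, and mt-Rnr2, mt-Co1 and mt-Atp8 were no longer called (edgeR, adjusted p of 0.0824, 0.0556 and 0.0533).

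**Figure D2:**
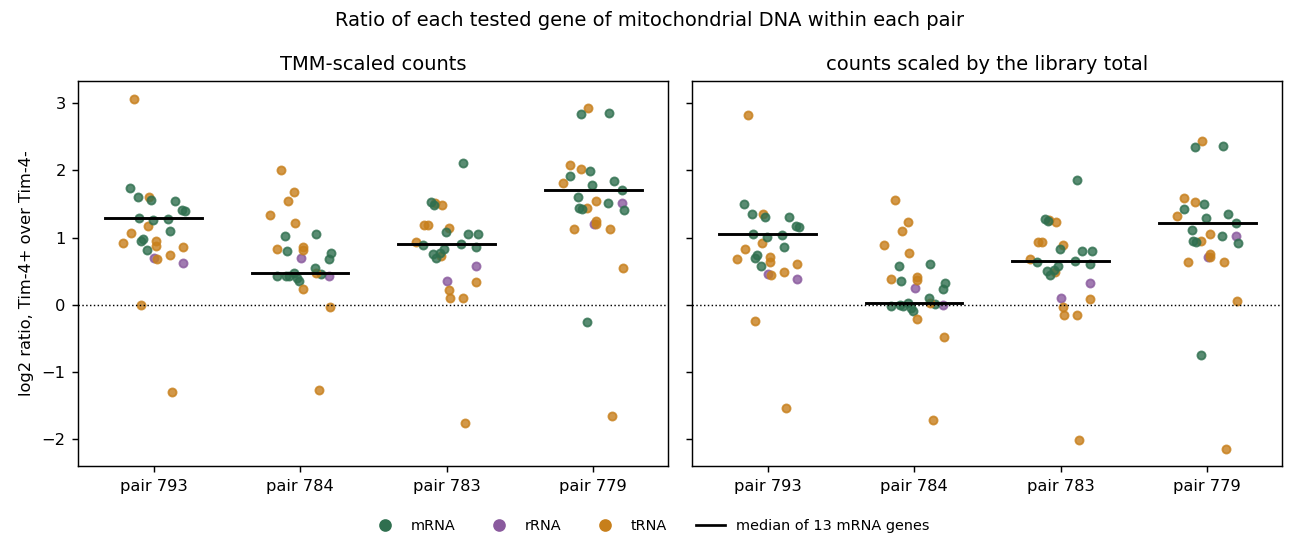
Each point is the log2 ratio of Tim-4+ over Tim-4- TAMs (vertical axis) of 1 of the 27 tested genes within 1 of the 4 pairs (horizontal axis), on TMM-scaled counts at left and on counts scaled by the library total at right. Black bars are medians of the 13 coding genes, which in pair 784 fall from 0.47 to 0.03 between the panels. The lowest tRNA point in every pair is mt-Ts1.

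Protein-coding transcripts made up nearly all counts on mitochondrial DNA. Their share of all counts was 2.05%, 1.24%, 1.77% and 2.74% in the Tim-4+ libraries and 1.05%, 1.22%, 1.19% and 1.30% in the Tim-4- libraries. The Tim-4- libraries lay close together, whereas the Tim-4+ libraries ranged widely, and the Tim-4+ library of pair 784 fell within the range of the Tim-4- libraries. The rRNA genes took 0.0276% to 0.0411% in Tim-4+ and 0.0216% to 0.0326% in the Tim-4- libraries, which is the rRNA left after its removal. The tRNA genes took 0.00505% to 0.00789% and 0.00494% to 0.00663%. In each class the ranges of the 2 subsets overlapped.

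Complex I genes were called higher in 6 of 7 cases, with a median log2 fold change of 1.17. mt-Nd1, mt-Nd2, mt-Nd4 and mt-Nd5, which encode core subunits of the proton-pumping arm, had log2 fold changes of 1.17, 1.23, 0.98 and 1.12 and no overlap between the subsets in TMM-scaled CPM. By total counts the subsets overlapped for mt-Nd4 and mt-Nd5, which were both slightly lower in the Tim-4+ library of pair 784 (log2 ratios of -0.01 and -0.09). mt-Nd6 (13552 to 14070 of chromosome M), the only coding gene of the minus strand, was at 558, 371, 547 and 644 CPM in the Tim-4+ libraries and at 212, 217, 264 and 242 CPM in the Tim-4- libraries. Every Tim-4+ library was above every Tim-4- library, and this also held by total counts. It changed by 1.16 on the log2 scale (SE 0.15, adjusted p = 0.00654 from edgeR). mt-Nd4l, which encodes a small complex I subunit, had 32, 17, 33 and 59 counts in Tim-4+ and 21, 12, 11 and 11 counts in the Tim-4- libraries. It had the lowest level per kb of the coding genes, and the subsets overlapped in counts but not in TMM-scaled CPM. Its log2 fold change of 1.77 (95% interval 0.57 to 2.97) missed the threshold with edgeR (adjusted p = 0.0528) and passed it with DESeq2 (adjusted p = 0.0109).

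Cytochrome b, the complex III subunit, rose by 1.06 on the log2 scale (mt-Cytb, standard error 0.20, adjusted p = 0.0143 from edgeR). Both complex V genes rose, by 1.19 for mt-Atp8 and 1.24 for mt-Atp6 (edgeR, adjusted p of 0.0282 and 0.0248). By total counts both were slightly lower in the Tim-4+ library of pair 784 (log2 ratios of -0.05 and -0.02). The subsets overlapped by total counts for both and for mt-Cytb. Without a count filter neither complex V gene was called (edgeR, adjusted p of 0.0638 and 0.0667). mt-Atp8 and mt-Atp6 overlap by 43 bases, and reads in the overlap cannot be given to 1 of them.

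In complex IV, mt-Co1 and mt-Co2 were called higher and mt-Co3 was not. mt-Co1 (5328 to 6872), which encodes the catalytic subunit, had the highest level per kb of the coding genes and was at 9247, 6076, 7976 and 13632 CPM in Tim-4+ and 4688, 4507, 4939.8 and 5060.5 CPM in the Tim-4- libraries. On this TMM scale the Tim-4- libraries differed little and all lay below the lowest Tim-4+ library, whereas the subsets overlapped by total counts, with a log2 ratio of -0.02 in pair 784. It changed by 0.88 on the log2 scale (SE 0.22, adjusted p = 0.0318 from edgeR). mt-Co1 took a lower part of the counts on mitochondrial DNA in the Tim-4+ libraries, 39.3% to 41.5% compared with 42.6% to 45.5% in the Tim-4- libraries. mt-Nd1 took 11.5% to 12.5% compared with 10.1% to 11.1%. Of the 37 genes, only mt-Co1, mt-Nd1 and mt-Ts1 had ranges that did not overlap, and these differences in parts were not tested. Such parts do not depend on how libraries are scaled, although they sum to 100% over the genes.

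mt-Co3 (chromosome M, 8607 to 9390) had 122, 94, 156 and 361 counts in the Tim-4+ libraries, compared with 97, 99, 131 and 584 counts in the Tim-4- libraries. The last of these stood apart, and it came from 1 lane, with 38 counts in lane 1 and 546 in lane 2. No other library differed this way between lanes for this gene, the next widest gap being 156 and 205 counts. In the same lane 2 the reads set aside as not unique numbered 3153643, compared with 10020232 in lane 1 of that library, or 9.11% of the reads listed for the lane compared with 20.3% to 23.8% in lane 2 of the other libraries. The log2 fold change of mt-Co3 was 0.44 (95% interval -0.16 to 1.05, adjusted p = 0.276 from edgeR). With only lane 1 used for that library, an alternative chosen after seeing the data, the value was 1.15 (edgeR, adjusted p = 0.0839). Over all alternatives it was 0.09 to 1.15, and it was called in none.

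The coding genes fell into 2 ranges of level per kb. In Tim-4+ TAMs 9 genes lay between 835 CPM per kb (mt-Atp6) and 5976 CPM per kb (mt-Co1), and mt-Co2, mt-Nd3, mt-Co3 and mt-Nd4l were at 7.66, 6.26, 4.72 and 2.39 CPM per kb. In Tim-4- TAMs the same 4 genes were at 2.32, 2.23, 4.28 and 0.663 CPM per kb, and the other 9 between 339 and 3106. mt-Co3 begins where mt-Atp6 ends on the same strand, and the level per kb of mt-Atp6 was 835 ± 325 in the Tim-4+ libraries (SD, n = 4) compared with 4.72 ± 3.28 for mt-Co3.

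**Figure D3:**
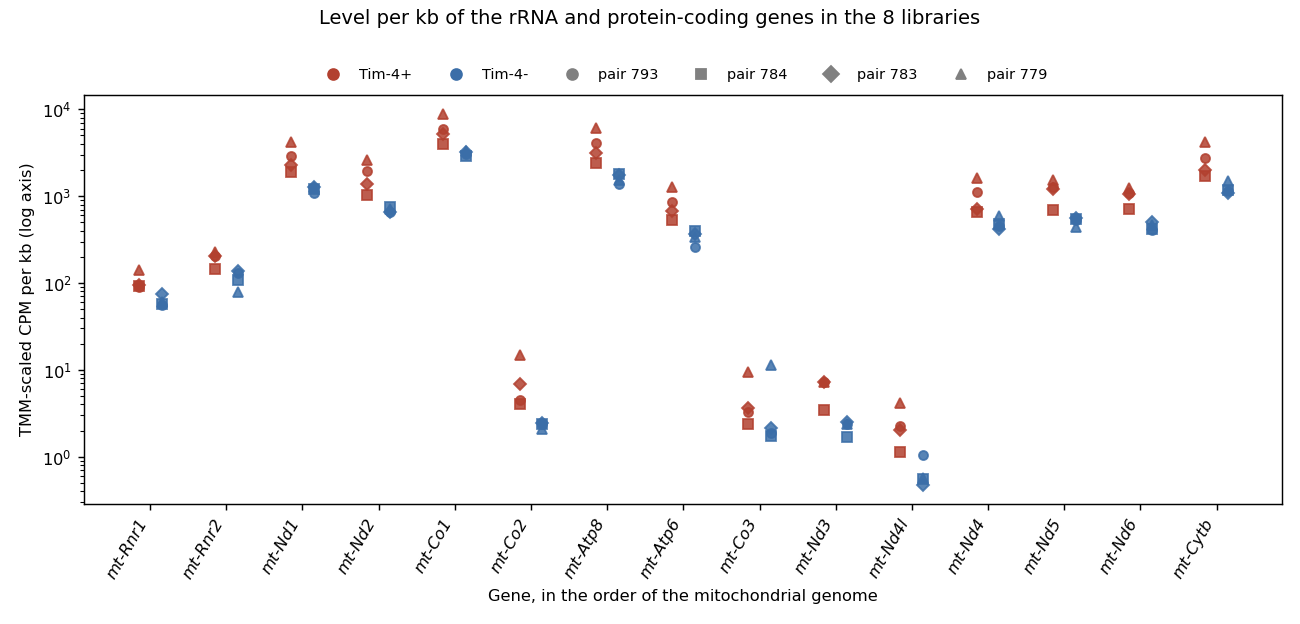
TMM-scaled CPM per kb (vertical log axis) is shown for both rRNA genes and the 13 coding genes in genome order, with 1 point per library, red for Tim-4+ and blue for Tim-4-, and a symbol for each pair. mt-Co2, mt-Co3, mt-Nd3 and mt-Nd4l lie under mt-Rnr1 in every library, and mt-Co3 has 1 high Tim-4- library, that of pair 779.

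These 4 genes share their sequence with the nuclear genome. Of the 50-base windows of mt-Co2, mt-Co3, mt-Nd4l and mt-Nd3, 100%, 99.9%, 98.8% and 98.0% also occur in an annotated nuclear transcript, and the counting set aside reads that match more than 1 place. The copies are pseudogenes that lie next to each other on chromosome 1 of GRCm38, between 24611535 and 24616197, in the gene order of the mitochondrial genome. Gm28437 (24613189 to 24613971) matched mt-Co3 over 783 bases, Gm28661 matched mt-Co2 over 681, Gm10222 matched mt-Nd4l over 294 and Gm10925 matched mt-Atp6 over 678 bases, all with 0 mismatches. Gm28438 matched mt-Nd3 over 345 bases with 1 substitution, T3C, where the base of mt-Nd3 comes first and positions count from its 5′ end. The first 60 bases of 2 genes and their copies are shown to give the degree of likeness, with the differing base in capitals.
mt-Co3 (chrM:8607-8666, plus strand): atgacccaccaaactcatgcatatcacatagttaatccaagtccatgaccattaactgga
Gm28437 (chr1:24613912-24613971, minus strand): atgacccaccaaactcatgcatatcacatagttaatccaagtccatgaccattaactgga
mt-Nd3 (chrM:9459-9518, plus strand): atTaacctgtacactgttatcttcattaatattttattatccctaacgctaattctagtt
Gm28438 (chr1:24613060-24613119, minus strand): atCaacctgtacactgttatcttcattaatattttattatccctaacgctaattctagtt

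The rest of the coding genes shared fewer windows, with the exception of mt-Atp6. The share was 62.2% for mt-Nd4, 51.1% for mt-Co1, 8.2% for mt-Nd2 and 7.6% for mt-Nd5, and it was 0% for mt-Nd1, mt-Cytb, mt-Nd6 and mt-Atp8. mt-Atp6 shared 99.5% of its windows and still had 11728 to 41830 counts per library, so not every gene with shared sequence had a low count. Whether this comes from read pairs that reach into mt-Atp8 was not tested. Counted per window that no nuclear transcript holds, the mean count in the Tim-4+ libraries was 148 for mt-Nd1, 138 for mt-Cytb and 138 for mt-Nd4, and 628 for mt-Co1. It was 18.2 for mt-Nd3 and 11.8 for mt-Nd4l, on 6 and 3 such windows. mt-Co3 was at 183 on 1 window and mt-Atp6 at 9396 on 3 windows. For these 4 genes the windows are too few for the measure to be read, and mt-Co2 has no such window. Only annotated transcripts were searched, and nuclear copies outside them were not analysed here. The 6 coding genes with under 10% of windows shared had log2 fold changes of 1.06 to 1.23, and all 6 were called higher. Among the 6, mt-Atp8 lies between mt-Co2 and mt-Atp6, whose copies Gm28661 and Gm10925 are neighbors on chromosome 1. The stretch between these copies (24614651 to 24614885) was searched only where a transcript is annotated. The 0% of mt-Atp8 therefore does not show that it has no nuclear copy.

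**Figure D4:**
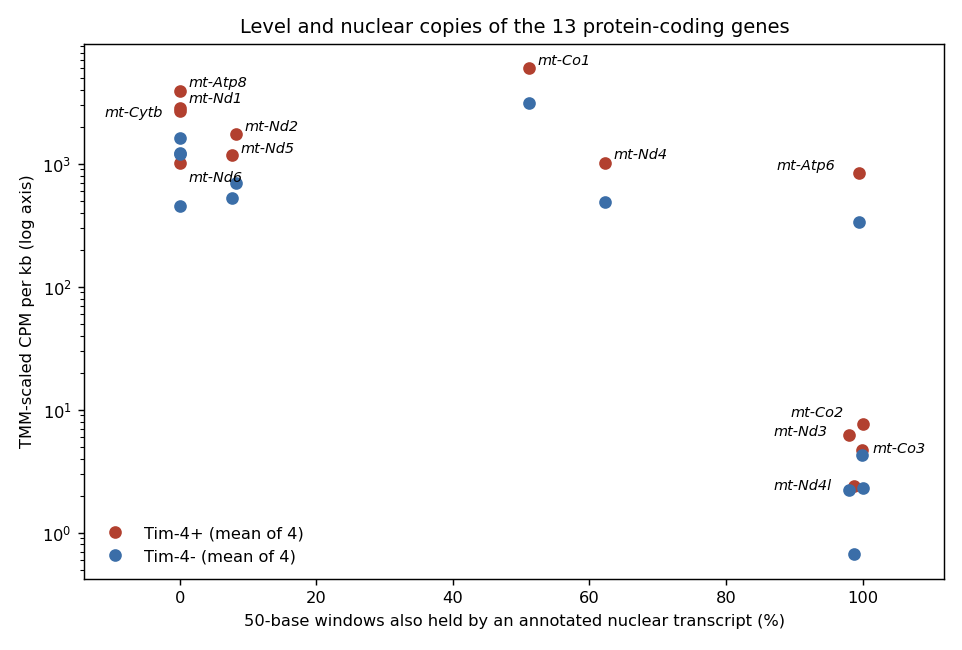
TMM-scaled CPM per kb of the 13 coding genes (vertical log axis, mean of 4 libraries, red for Tim-4+ and blue for Tim-4-) is plotted against the percent of 50-base windows that an annotated nuclear transcript also holds. Of the 5 genes at 98.0% or more, 4 lie at or under 7.66 CPM per kb and mt-Atp6 lies at 835 in the Tim-4+ libraries.

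The nuclear copies themselves had low counts. Gm28661, Gm10925, Gm28439 and Gm29216 had 1 to 79 counts per library, and Gm10222 had 0 to 9. Gm28438, the copy of mt-Nd3, had 4 to 89 counts, next to 43 to 137 for mt-Nd3 itself. Gm13340 on chromosome 2, a less exact copy of mt-Co1 with 27.5% of its windows matching, had 71 to 229. Gm28437, the copy of mt-Co3, had 24, 13, 42 and 37 counts in the Tim-4+ libraries, compared with 13, 1214, 24 and 17 in the Tim-4- libraries. Of the 1214 counts in the Tim-4- library of pair 784, 1197 were in lane 1 and 17 in lane 2, a gap between lanes like that of mt-Co3 but in another library. None of the copies was called.

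The 2 ribosomal RNAs, which form the core of the mitochondrial ribosome, rose, with log2 fold changes under those of every mRNA but mt-Co3. mt-Rnr1 (12S) was at 87.0, 88.2, 91.3 and 134 CPM in the Tim-4+ libraries and at 53.8, 54.4, 71.6 and 58.5 CPM in the Tim-4- libraries, with a log2 change of 0.73 (SE 0.14, adjusted p = 0.0160 from edgeR). mt-Rnr2 (16S) was at 321, 230.0, 324 and 359 CPM in the Tim-4+ libraries and at 209, 170.2, 218 and 126 CPM in the Tim-4- libraries, with a log2 change of 0.78 (SE 0.19, adjusted p = 0.0308 from edgeR). Neither gene overlapped between the subsets on TMM-scaled counts, and both did by total counts. Because rRNA was removed during library preparation, these levels are not those of the cells.

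The ratio of mt-Nd1 to mt-Rnr2, which lie on the same strand with only mt-Tl1 between them, was compared within libraries, where scaling has no part. The counts of mt-Rnr2 are those left after rRNA removal, so this ratio is not that of the cells. The part of the removal in it was not tested. The log2 ratio was 3.12, 2.998, 2.77 and 3.48 in the Tim-4+ libraries and 2.32, 2.76, 2.48 and 3.28 in the Tim-4- libraries. It was higher in the Tim-4+ libraries in all 4 pairs, but the subsets overlapped (exact two-sided permutation test without regard to pairs, p = 0.171, adjusted p = 0.257 over 3 ratios compared, and within pairs p = 0.125). The ratio of mt-Cytb to mt-Nd6, a gene of each strand, had a mean log2 of 2.47 ± 0.347 and 2.57 ± 0.249 (SD, n = 4 each, exact two-sided permutation test without regard to pairs, p = 0.657, adjusted p = 0.657, and within pairs p = 0.25).

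tRNA genes gave few counts, and their counts differed by strand. The 14 tRNA genes of the plus strand all lie within 1 base of a neighbor on the same strand or overlap it. Apart from mt-Tl1 and mt-Tm, 12 of them had 0 to 26 counts per library, and 10 of these were not tested (mt-Tf, mt-Tv, mt-Ti, mt-Td, mt-Tk, mt-Tr, mt-Th, mt-Ts2, mt-Tl2 and mt-Tt). Of the 8 tRNA genes of the minus strand, mt-Tq had 6 to 26 counts and the other 7 had 161 to 1390. Here mt-Ta, mt-Tn, mt-Tc and mt-Ty lie 2 bases and mt-Te 0 bases from the nearest gene on the same strand. For mt-Tq, mt-Tp and mt-Ts1 this distance is 1175, 1216 and 1543 bases. On the plus strand mt-Tl1, at 0 bases, had 355 to 1161 counts. Whether distance to a neighbor bears on the counts was not tested. tRNAs of 59 to 75 bases are short for the fragments of such libraries, and whether these reads come from mature tRNAs or from precursors was not tested. The sources used here do not say whether strand was used in counting, so reads of the opposite strand cannot be told apart at the minus-strand genes.

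Among the 12 tested tRNA genes, 4 were called higher and 7 were not called. mt-Tl1, whose sequence is shown above, was at 20.7, 13.3, 21.2 and 23.1 CPM in the Tim-4+ libraries and at 9.86, 7.49, 9.31 and 5.45 CPM in the Tim-4- libraries. The subsets did not overlap, with a log2 fold change of 1.29 (SE 0.22, adjusted p = 0.0113 from edgeR). mt-Tn (asparagine), mt-Ty (tyrosine) and mt-Tm (methionine) were the others called higher, with log2 fold changes of 1.25, 1.04 and 1.76. mt-Tc was at 12.6, 9.06, 10.7 and 12.98 CPM in the Tim-4+ libraries and at 7.60, 6.55, 9.92 and 5.95 CPM in the Tim-4- libraries. It was higher in the Tim-4+ libraries in all 4 pairs but overlapped, with a log2 fold change of 0.61 (95% interval 0.15 to 1.06, adjusted p = 0.0711 from edgeR). mt-Ta, mt-Tp and mt-Te had log2 fold changes of 0.80, 0.63 and 0.42, and mt-Tq, mt-Tw and mt-Tg had 1.23, 1.21 and 1.76 on 3 to 26 counts per library.

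mt-Ts1, the serine tRNA with anticodon TGA printed above, fell in the Tim-4+ libraries. It had 195, 186, 195 and 326 counts in the Tim-4+ libraries, compared with 672, 656, 950 and 1390 counts in the Tim-4- libraries, or 4.10, 3.72, 3.56 and 6.78 CPM compared with 10.1, 8.96, 12.1 and 21.3 CPM. Every Tim-4+ library was below every Tim-4- library, by total counts too, and single lanes had 82 to 174 and 319 to 715 counts. Its log2 fold change of -1.50 (SE 0.17, adjusted p = 0.00526 from edgeR) corresponds to a level in the Tim-4+ libraries 0.354 times that in the Tim-4- libraries. Each pair left out in turn kept the call. With the pair block left out it was -1.53, and edgeR's adjusted p rose to 0.0535. Of the 27 tested genes it was the only one with a log2 fold change under 0 in any setting.

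The gene lies on the minus strand, and its last 3 bases overlap the end of mt-Co1 on the plus strand, whose level changed in the other direction. It lies between mt-Co1 and mt-Co2, of which Gm29216 and Gm28661, neighbors on chromosome 1, are copies. No annotated nuclear transcript shared a window with mt-Ts1. Whether the stretch between these copies (24615565 to 24615706) holds a copy of mt-Ts1 was not tested. The other 8 genes of the minus strand had log2 fold changes of 0.42 to 1.25. Within libraries, the log2 ratio of mt-Ts1 to mt-Nd6 was -7.09, -6.64, -7.26 and -6.57 in the Tim-4+ libraries and -4.40, -4.60, -4.45 and -3.50 in the Tim-4- libraries. Within pairs the difference of Tim-4+ from Tim-4- was -2.69, -2.04, -2.81 and -3.06, with a mean of -2.65 ± 0.436 (SD of 4 pairs). An exact two-sided permutation test within pairs gave p = 0.125, the smallest that 4 pairs allow, so this design cannot reach 0.05. Without regard to pairs the exact test gave p = 0.0286, the smallest that 70 relabellings allow, and an adjusted p of 0.0857 over the 3 ratios. This ratio was chosen after the values of mt-Ts1 were seen.

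**Figure D5:**
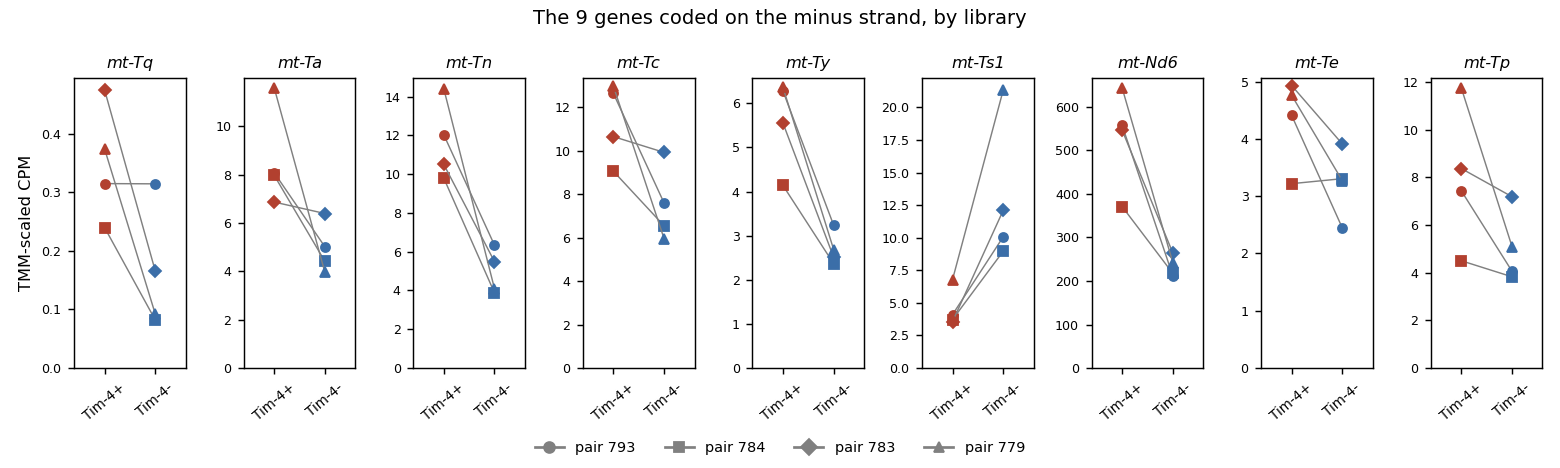
TMM-scaled CPM (vertical axes, each from 0 and with its own range) is shown for the 9 genes of the minus strand in Tim-4+ and Tim-4- TAMs, with lines joining the 2 libraries of a pair. mt-Ts1 is higher in the Tim-4- libraries in all 4 pairs, whereas mt-Nd6 is lower in all 4.

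Few nuclear genes that serve mitochondrial DNA were called. Of 33 genes for its transcription, RNA processing and replication, all tested, 0 were called higher with edgeR and 3 (9.09%) were called lower, beside the shares of 8.97% and 8.43% over all genes. DESeq2 called 1 higher and 4 lower, where it called 13% of all tested genes higher and 13.8% lower. At an unadjusted p under 0.05 with edgeR, 3 were higher and 4 lower, and the share over all genes was not counted there. The 3 called lower with edgeR were Tfam, which packages mitochondrial DNA and starts its transcription, Twnk, the replicative helicase, and Fastkd3, an RNA-binding protein of mitochondria. Their log2 fold changes were -0.63, -0.62 and -0.76. The level of Tfam was 11.8 ± 0.925 CPM in the Tim-4+ and 18.4 ± 2.69 CPM in the Tim-4- subset (SD, n = 4). Their calls were lost without the pair block, where 0.504% of all tested genes were called lower. By total counts 10 of the 33 were called lower, where 29.1% of all tested genes were.

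Of 85 nuclear genes for subunits of oxidative phosphorylation complexes, 77 were tested, with a median log2 fold change of -0.03. The list includes Sdha, Sdhb, Sdhc and Sdhd of complex II, to which none of the 13 coding genes of mitochondrial DNA belongs. Of the 77, 1 (1.3%) was called higher and 6 (7.79%) lower, beside 8.97% and 8.43% of all tested genes. The one called higher was Cox7a2l, a supercomplex factor (0.55), and the ones called lower were Atp5e, Atp5g3, Atp5j2, Ndufc1, Uqcr10 and Cox7a1, with -0.43 to -1.03. By total counts 0 were higher and 35 lower, where 4.68% of all tested genes were higher and 29.1% lower. Without the pair block none was called, where 0.872% of all tested genes were called higher and 0.504% lower. The 13 coding genes of mitochondrial DNA had fold changes of 0.44 to 1.77 on the log2 scale in the main fit.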

How the data were processed

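The authors deposited raw counts of reads per gene, as whole numbers without normalization, for 2 lanes of each of 8 libraries. The submitters' processing notes name FastQC 0.11.3, TopHat2 2.0.13, Cufflinks, Cuffdiff 2.2.1 and GRCm38 (mm10). The counter and its strand setting are not given in the sources used here. Lanes were summed, so that 1 library was 1 replicate. The lane listed by gene symbol, lane 1 of the Tim-4- library of pair 793, was joined by order, and all 37 mitochondrial symbols matched. Gene names, coordinates and sequences are from GENCODE M21.

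Genes that reached 10 counts in 4 or more libraries were tested with the robust quasi-likelihood test of edgeR 4.0.16 (R 4.3.3) after TMM scaling, with the pair number as a block, and p-values were adjusted by Benjamini-Hochberg. A call is an adjusted p under 0.05, with no minimum fold. CPM values other than the floor are TMM-scaled. After subset means were removed, the 2 libraries of each pair had an r across genes of 0.607, 0.620, 0.458 and 0.374, so the numbers, which come from the sample labels, were taken to pair the samples. Permutation tests used SciPy. The fit was tested on simulated data.

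All 37 genes are named. Values in every library are given for the rRNA genes, mt-Nd6, the coding genes highest and lowest per kb, coding genes not called, the 3 tRNA genes with the most counts and any tRNA called lower. The members, gene lists and tests were chosen with earlier results of these data known. Alternatives were DESeq2 1.42.0 and its size factors, total counts, TMM without mitochondrial genes, no filter, at least 50 counts, no block, lane 2 only and each pair left out. Leaving out the symbol-listed lane, lane 1 only for the Tim-4- library of pair 779, and length in unshared windows were added after the data were seen.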

Additional observations from a re-analysis of the deposited data

Results flagged for a closer look

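In 58 groups of 4 libraries, 7 had a library far from the other 3, where chance flags about 1 in 20 groups. mt-Rnr1 was at 134 CPM in the Tim-4+ library of pair 779, compared with 87.0 to 91.3 CPM in the other Tim-4+ libraries. mt-Ts1 was at 6.78 CPM in the same library, compared with 3.56 to 4.10 CPM, and was still below every Tim-4- library. mt-Co3 was at 8.96 CPM in the Tim-4- library of pair 779, compared with 1.35 to 1.67 CPM. In that library 9.11% of the reads of lane 2 were set aside as not unique, compared with 20.3% to 20.8% in the other Tim-4- libraries. mt-Nd3 was low in both libraries of pair 784, at 1.20 CPM in Tim-4+ TAMs (2.50 to 2.52 CPM in the others) and 0.588 CPM in Tim-4- TAMs (0.824 to 0.866 CPM in the others). mt-Nd4l was at 0.315 CPM in the Tim-4- library of pair 793, compared with 0.140 to 0.169 CPM, on 21 counts. The causes were not tested.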

How the results depend on the processing

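Of the genes of mitochondrial DNA, 14 to 22 were called higher and 1 lower with DESeq2 (22) or its size factors, total counts (14), TMM without mitochondrial genes, other filters, lane 2 only or either lane alternative, compared with 17 and 1. Without the pair block 3 were called higher and 0 lower, 1 of them a coding gene and 2 tRNA genes. With a pair left out, 1 to 19 were called higher and 1 lower, with 1 to 11 coding genes and 0 to 6 tRNA genes among the higher, 3 genes without pair 793, 1 without 784 and 3 without 779. DESeq2 called 8 tRNA genes higher, compared with 4. None of the 27 tested genes changed direction. The share of counts on mitochondrial DNA was 1.73% to 2.23% in Tim-4+ and 1.19% to 1.27% in Tim-4- TAMs with a pair left out. Of the genes for expression of mitochondrial DNA, 10 were lower by total counts and 0 without the block. Of the nuclear subunits, 0 were higher under either, and 35 were lower by total counts and 0 without the block. Over all genes, calls numbered 1512 higher and 1421 lower, 789 and 4903 by total counts, 147 and 85 without the block, 2194 and 2328 with DESeq2, and 719 and 470, 78 and 54, 1573 and 1895, and 445 and 328 without pairs 793, 784, 783 and 779. The planned level per kb over windows found at 1 place in the genome was not run, since no genome sequence was used here, and windows in transcripts stood in for it. mt-Nd4l and the least counted tRNA genes are limited by counts.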
